A study of Mus musculus with 6 samples.

Results

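Interferon response genes are the genes that cells switch on when type I interferon reaches them, together with the receptor that receives it. The set described here held 46 mouse genes, chosen by name, of which 45 were found among the 32285 genes of the matrices. Mx1, a GTPase that blocks influenza-like viruses, was not found under that symbol and has no value here. They were measured by single-nucleus RNA-seq in 6 libraries of mouse cortex. Sorting kept nuclei without NeuN, a protein of neuronal nuclei, so the libraries are mostly glia. All mice were 7.5 months old and carried 5xFAD, a transgenic background with mutant human amyloid precursor protein and presenilin under a neuronal promoter, which gives amyloid plaques. The groups were 5xFAD alone, 5xFAD;M28L and 5xFAD; P522R (written 5xFAD-M28L and 5xFAD-P522R), which add the M28L or the P522R variant of phospholipase C-γ2, and each group had 2 libraries, numbered replicate 2 and replicate 3. No library of mice without 5xFAD was analysed here, so levels cannot be set against a brain without plaques.

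Type I interferons bind a receptor made of Ifnar1 and Ifnar2. The receptor's kinases then activate Stat2, which acts with Irf9 in a complex that binds interferon-stimulated response elements in the promoters of target genes. The products bind viral RNA, stop translation, sense DNA, modify proteins with ubiquitin-like Isg15, and feed back on the receptor through Usp18. In brain, microglia are known to take up this programme around plaques, and endothelial cells are known for strong interferon responses.

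Promoters were searched for the element through which the factors activated by interferon act. The letters searched were GAAANNGAAA, the core of the interferon-stimulated response element, on either strand, in RefSeq promoters of build GRCm38.p6 that run from 250 bases before to 50 bases after a start site. Motif copies that overlap were each counted. Of all 32851 promoters of that length in the table, 3.44% held the motif, or 3.99% of 27025 genes. Among the members, 36 had an entry and 20 of them (55.6%) held it; 10 had no entry. The windows below belong to members that hold the motif, most of them named again in the results; capitals mark the motif copies, each printed 5′ to 3′ on the gene's own strand. A match is a description of letters and not a measured binding site.
Ifi206 (chr1:173491329-173491378, minus strand): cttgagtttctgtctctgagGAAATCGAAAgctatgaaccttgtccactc
Ifi213 (chr1:173599316-173599365, minus strand): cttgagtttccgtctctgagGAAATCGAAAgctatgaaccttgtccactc
Ifi207 (chr1:173741821-173741870, minus strand): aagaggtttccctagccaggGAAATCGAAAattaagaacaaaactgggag
Ifi211 (chr1:173913054-173913103, minus strand): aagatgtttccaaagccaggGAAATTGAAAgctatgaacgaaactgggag
Ddx60 (chr8:61928014-61928086, plus strand): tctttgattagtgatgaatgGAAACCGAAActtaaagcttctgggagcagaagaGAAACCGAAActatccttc
Oas1a (chr5:120907526-120907565, minus strand): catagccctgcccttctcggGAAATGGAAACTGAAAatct
Isg15 (chr4:156200855-156200916, minus strand): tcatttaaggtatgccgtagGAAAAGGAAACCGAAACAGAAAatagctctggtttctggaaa
Ifit1 (chr19:34640765-34640833, plus strand): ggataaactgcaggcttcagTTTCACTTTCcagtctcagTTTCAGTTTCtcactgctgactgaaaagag
Ifit3 (chr19:34583353-34583436, plus strand): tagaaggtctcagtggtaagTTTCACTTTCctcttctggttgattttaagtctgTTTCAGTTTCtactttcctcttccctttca

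Places of the motif are counted from the RefSeq start, and nearness to a start was set by the window searched. In 11 of 36 members the first RefSeq start was that of the gene in the GENCODE annotation. Ifi206, Ifi207, Ifi211 and Ifi213 each held 1 copy, which began 40, 41, 37 and 73 bases before the start. Ifit1 and Ifit3 held 2 copies each on the opposite strand. Isg15 held 3 copies that overlap. The promoters of Ifi206 and Ifi213 were nearly the same sequence, with 214 of 217 aligned bases identical (98.6%), and those of Ifi207 and Ifi211 shared 69.2%. Several members were neighbours on the chromosome. The 6 genes of the set from the p200 family, DNA sensors and nuclear proteins with a HIN domain, all lay on chromosome 1. They lay between 173468485 and 173913046 (GENCODE vM21, GRCm38). Ifit2, Ifit3 and Ifit1 lay on chromosome 19 between 34550694 and 34650009, and Oas2, Oas3 and Oas1a on chromosome 5 between 120730333 and 120907521. Transcripts of such family members were not compared, and their counts are given as uncertain.

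Libraries held 9269 to 13783 barcodes, 53326947 to 72288942 UMIs (unique transcript molecules) and a median of 3842 to 4973 UMIs per nucleus, and shared few barcodes with each other. Cell types were called per nucleus from 12 markers a class, none of them a member, which gave 900 to 1743 microglia, 732 to 1684 oligodendrocyte precursor cells (OPC), 118 to 1155 astrocytes, 4179 to 6711 oligodendrocytes and 11 to 124 endothelial nuclei per library. In sums over a cell type, fewer responding nuclei and less RNA per nucleus cannot be told apart. Each library pooled male and female mice in unstated number, so nuclei were also split by sex, female with Xist and male with Y-linked transcripts. One part of one library stood apart before any member was considered: the female microglia of 5xFAD replicate 2. Their summed level of 19 genes of plaque-associated microglia was 812 CPM (a gene's UMIs as a share of all UMIs in the sum, on a fixed scale), against 1739 to 4992 CPM in the other 11 sums of female or male microglia. Lpl and Gpnmb had no UMI there. The same nuclei had the highest summed border macrophage markers, 324 CPM against 57.0 to 259, with Mrc1 at 109.5 CPM and F13a1 at 86.2 CPM. The female microglia of 5xFAD-M28L replicate 3 came next with 259 CPM, where Mrc1 was at 70.4 CPM and F13a1 at 91.7 CPM. Cd3e, a defining T cell marker, was at 0 in all 12 sums. The part of these differences in the results was not tested. Group and sex comparisons of microglia and the sex comparison of OPC are given with and without this library.

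Most members had their highest level in endothelium or microglia. Levels across cell types are CPM of a cell type's own sum, as a mean of the 6 libraries with its SD. They compare cell types within a gene. Sums over genes and rankings of genes describe UMI counts alone, which are not scaled by transcript length. Of 45 members, 27 had their highest level in endothelium, 16 in microglia, 1 in OPC (Ifit2, 20.6 ± 1.80 CPM) and 1 in astrocytes (Rtp4, 40.9 ± 4.43 CPM); no member was highest in oligodendrocytes. Summed over the members, the level was 3645 CPM in endothelium and 2725 CPM in microglia. It was 579.9 CPM in astrocytes, 560.6 CPM in OPC and 294 CPM in oligodendrocytes, so these 3 types lay well below the first 2.

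**Figure D1:**
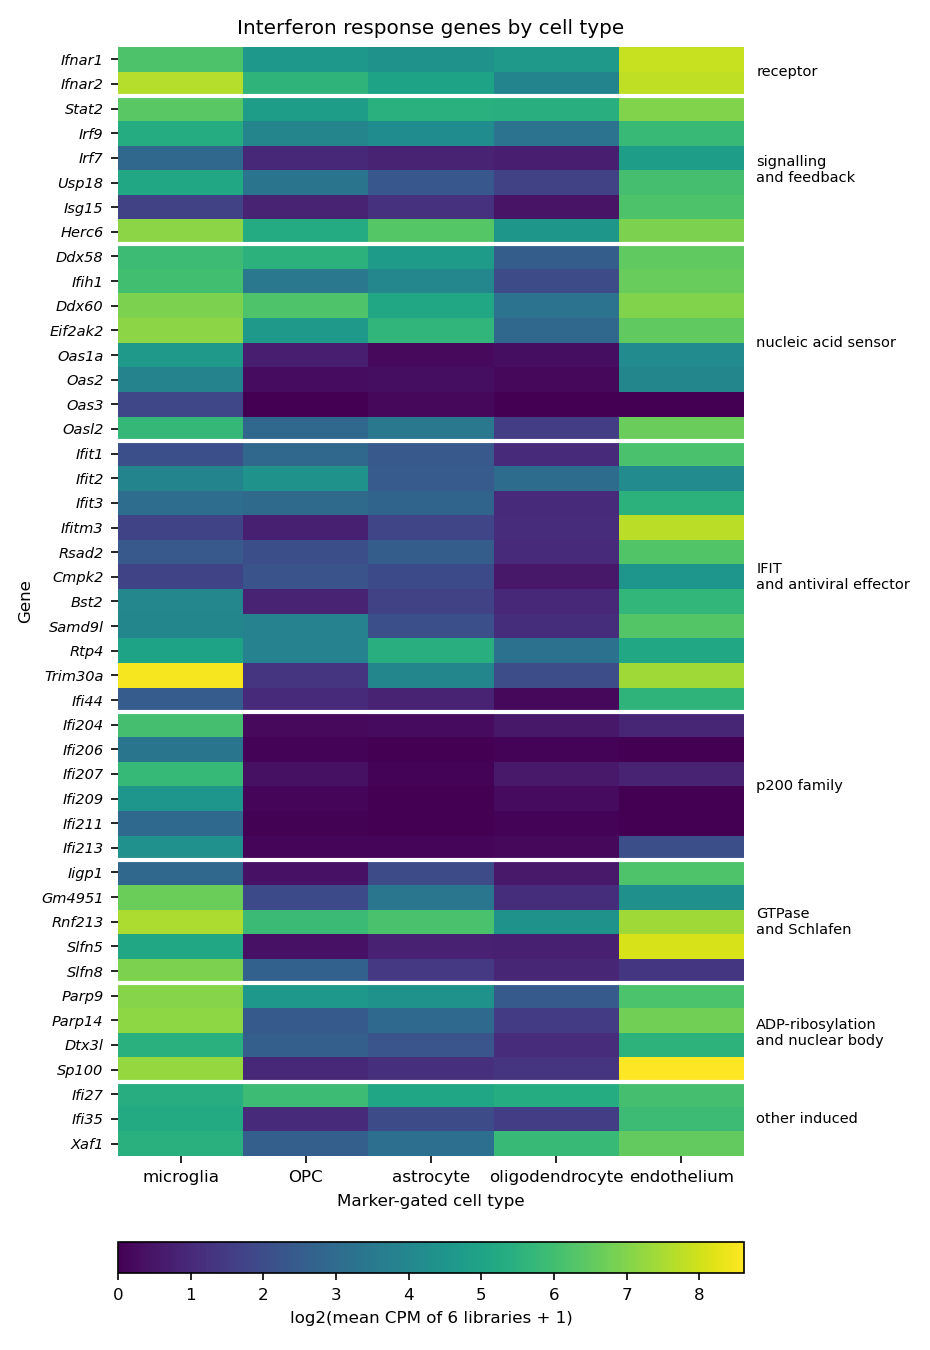
Mean level of each of 45 members in 5 cell types, as log2 of the mean CPM of 6 libraries plus 1, with members in rows grouped by role and white lines between groups. The p200 rows are dark outside microglia, apart from few UMIs in endothelium, and Ifitm3, Sp100 and Slfn5 are brightest in endothelium.

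The p200 genes of this set were found nearly only in microglia, and other genes of that family were not summed. The 6 genes of the set together had 5430 UMIs among 30405896 in microglia (178.6 CPM). In OPC they had 38 UMIs, in astrocytes 11, in oligodendrocytes 205 and in endothelium 7, or 0.719, 0.454, 1.42 and 5.14 CPM. Ifi204, a p200 protein that acts in DNA sensing and macrophage differentiation, was at 66.2 ± 9.30 CPM in microglia and at most 0.902 CPM on average elsewhere. Ifi206, Ifi209 and Ifi211 had no UMI in astrocytes or endothelium. Trim30a, a ubiquitin ligase that restrains inflammatory signalling, was at 361 ± 44.1 CPM in microglia, 164.5 ± 22.9 CPM in endothelium and 1.46 ± 0.564 CPM in OPC. Slfn8, a Schlafen protein of immune cells, was at 121.0 ± 8.22 CPM in microglia and 1.56 ± 2.47 CPM in endothelium.

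Of the 11 IFIT and antiviral effector genes, edgeR called 8 higher in endothelium, where 23.1% of 11421 genes were. It called 1, Trim30a, higher in microglia (31.3% of all genes), while Rtp4 and Ifit2 did not pass. Ifitm3, a membrane protein that stops virus entry, was at 208 ± 40.7 CPM in endothelium against 2.40 ± 0.591 CPM in microglia. Isg15 was at 73.1 ± 33.3 CPM against 2.19 ± 0.574 CPM, and Ifit1, which binds uncapped viral RNA, at 69.2 ± 38.3 CPM against 3.32 ± 0.993 CPM. The highest endothelial members were Sp100, a nuclear body protein, at 391 CPM, Slfn5 at 272 CPM and Ifnar1 at 236.5 CPM. Endothelial sums were thin, with 82 UMIs of Isg15 and 75 of Ifit1 over 6 libraries.

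Each other cell type had leading members of its own. In OPC they were Ddx60, a helicase that assists RNA sensing, at 74.7 CPM, Ifi27 at 59.6 CPM and Rnf213 at 57.8 CPM. In astrocytes they were Herc6, the ligase that attaches Isg15, at 81.0 CPM, Rnf213 at 69.9 CPM and Eif2ak2, the kinase PKR that halts translation, at 49.5 CPM. In oligodendrocytes they were Xaf1, a pro-apoptotic protein, at 54.9 CPM, Stat2 at 40.9 CPM and Ifi27 at 39.4 CPM.

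The differences between cell types were tested with edgeR's quasi-likelihood test, with the library as a block and Benjamini-Hochberg adjustment over all genes, at an adjusted p under 0.05. Against oligodendrocytes, 43 of 45 members tested were higher in microglia, where 37.7% of all genes were, and 2 were lower (39.8% of all genes), Ifi27 by -0.38 ± 0.07 (SE) and Xaf1 by -0.76 ± 0.07 on the log2 scale (edgeR adjusted p = 0.000303 and 1.32e-07). Against OPC, 35 of 43 members were higher in microglia (41.3% of all genes) and 4 were lower (40.7% of all genes). The 4 were Ifit1 (log2 difference -1.33 ± 0.19), Cmpk2 (-0.99 ± 0.21), Ifi27 (-0.99 ± 0.06) and Ifit2 (-0.98 ± 0.10). Against astrocytes, 36 of 43 were higher (41.1% of all genes) and 1 was lower (37.0% of all genes), Rtp4 by -0.68 ± 0.08 (edgeR adjusted p = 1.44e-06). Against endothelium, 12 of 43 were higher in microglia (31.3% of all genes) and 23 were lower (23.1% of all genes), where the median of all genes was 0.16. Ifitm3 differed by -6.37 ± 0.24, Isg15 by -4.84 ± 0.34, Ifit1 by -4.19 ± 0.33, Rsad2 (viperin) by -3.92 ± 0.31 and Iigp1, an immunity-related GTPase, by -3.49 ± 0.29. Members were thus called higher in microglia more often than genes in general against OPC, astrocytes and oligodendrocytes, but not against endothelium. Part of these calls was set by the count filter. The count filter keeps a gene that is high in 1 cell type alone. Members with few UMIs in the other cell type could pass it only through microglia, so their direction there was fixed in advance. Against OPC and astrocytes these included the 6 p200 genes, Oas1a, Oas2 and Slfn5, and against endothelium the p200 genes. All genes went through the same filter, and its part in the counts was not tested. The counts describe the members and are not a test of the set.

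The genes that make interferon were nearly silent in the 5 cell types summed, and other nuclei were not counted for them. Of 14 listed interferons, including Ifnb1, the alpha interferons and Ifng, none had a UMI among 30405896 UMIs of microglia, which allows up to 0.0987 CPM (3 UMIs, counting error only). None had a UMI among 1361214 UMIs of endothelium, which allows up to 2.20 CPM. Ifnk had 4 UMIs in OPC, 3 in astrocytes and 35 in oligodendrocytes, and Ifna2 had 1 in oligodendrocytes.

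In microglia, the 20 most abundant members are given by library as TMM-normalized CPM, with replicates 2 and 3 of 5xFAD, then of 5xFAD-M28L, then of 5xFAD-P522R. Trim30a was at 295 and 351 CPM, 379.5 and 433 CPM, and 328 and 391 CPM. Both 5xFAD-M28L libraries lay above both 5xFAD libraries, and 5xFAD-P522R overlapped each of them. Ifnar2, the signalling chain of the receptor, was at 174 and 213 CPM, 185 and 214 CPM, and 208.5 and 223 CPM. Ifnar1, its partner, was at 69.9 and 71.6 CPM, 72.6 and 74.4 CPM, and 74.4 and 76.8 CPM. Ifnar1 thus varied little across libraries, from 69.9 to 76.8 CPM, while Ifnar2 ran from 174 to 223 CPM. Stat2, the transcription factor of the complex, was at 75.7 and 82.1 CPM, 85.2 and 94.1 CPM, and 76.05 and 95.9 CPM. Herc6 was at 133 and 155 CPM, 125 and 149 CPM, and 123 and 144 CPM, with all groups overlapping.

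The sensors of foreign RNA came next. Eif2ak2 was at 114 and 143 CPM in 5xFAD, 144 and 156 CPM in 5xFAD-M28L and 129.7 and 143 CPM in 5xFAD-P522R. Ddx60 was at 118 and 112 CPM, 127 and 132 CPM, and 119 and 118 CPM. Both 5xFAD-M28L values were the highest for these 2 genes. Ifih1, the long double-stranded RNA sensor MDA5, was at 60.8 and 62.4 CPM, 68.9 and 62.4 CPM, and 58.6 and 63.7 CPM. Ddx58, the sensor RIG-I, was at 58.7 and 59.35 CPM, 62.6 and 65.4 CPM, and 48.4 and 62.6 CPM. Oasl2, an oligoadenylate synthetase-like protein, was at 39.2 and 54.4 CPM, 58.2 and 60.4 CPM, and 50.05 and 51.8 CPM. For Oasl2 the low value came from 5xFAD replicate 2.

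Members of other roles differed in which library was lowest. Ifi204 was at 55.7 and 77.2 CPM, 74.5 and 74.6 CPM, and 57.8 and 59.3 CPM. Ifi207 was at 36.2 and 69.2 CPM in 5xFAD, so its libraries differed more from each other than the 5xFAD-M28L libraries (41.3 and 43.5 CPM) did from the 5xFAD-P522R libraries (63.3 and 65.3 CPM). Among the GTPases and Schlafens, Rnf213, a giant ubiquitin ligase with antimicrobial activity, was at 179 and 175 CPM, 191 and 189 CPM, and 184 and 200.4 CPM. Slfn8 was at 108 and 119 CPM, 117 and 131 CPM, and 121 and 132 CPM. Gm4951, an interferon-inducible GTPase gene, was at 90.4 and 120.4 CPM, 91.9 and 127.5 CPM, and 86.0 and 94.45 CPM. None of these 3 separated all groups.

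ADP-ribosylation and nuclear body genes completed the 20. Sp100 was at 116.5 and 162 CPM, 159 and 157.5 CPM, and 159 and 157 CPM. Parp14, an ADP-ribosyltransferase, was at 124 and 146 CPM, 149.7 and 149 CPM, and 136 and 141 CPM. Parp9 was at 111 and 138 CPM, 134 and 141 CPM, and 134 and 135.5 CPM. In all 3 genes, 5xFAD replicate 2 was the lowest library. Dtx3l, the ligase that partners Parp9, was at 34.9 and 44.0 CPM, 42.4 and 41.6 CPM, and 49.5 and 47.8 CPM, and Xaf1 at 37.0 and 49.2 CPM, 45.4 and 45.4 CPM, and 35.7 and 45.5 CPM. Over these 20 genes, 5xFAD replicate 2 was the lowest of the 6 libraries for 13 and the highest for 0. Over all 45 it was the lowest for 25. The other 25 members had means from 39.9 CPM (Ifi27) down to 2.20 CPM (Isg15).

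**Figure D2:**
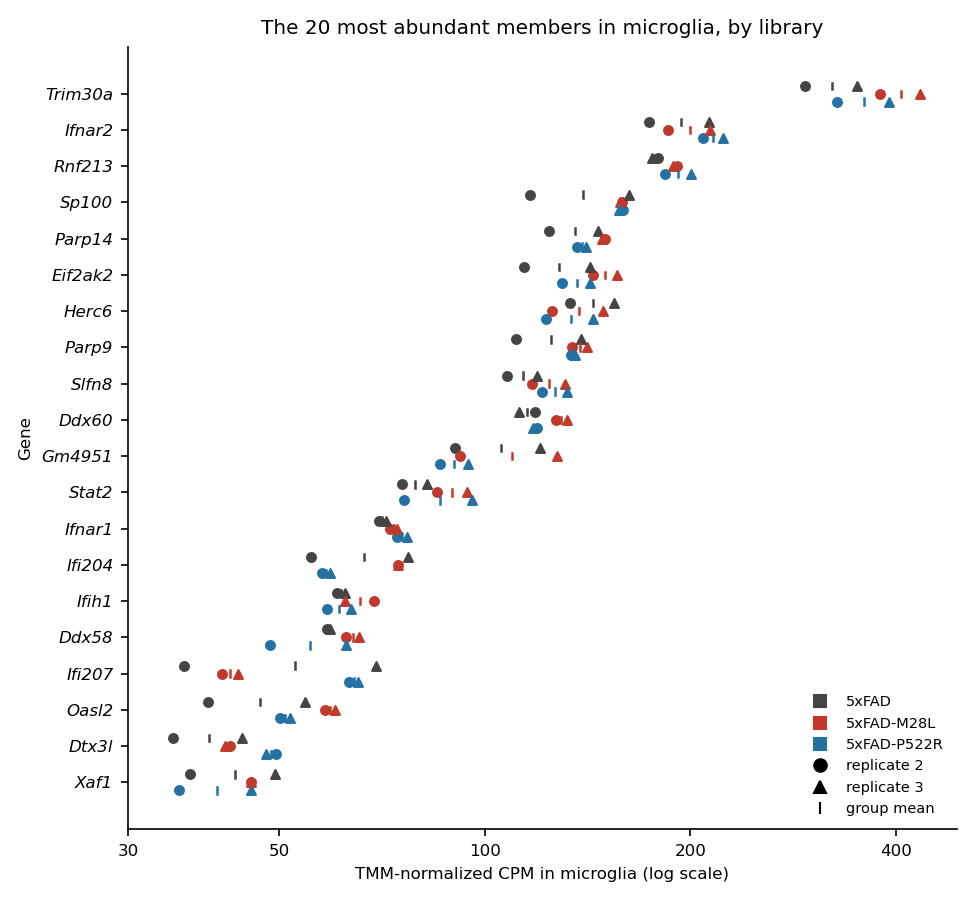
TMM-normalized CPM in microglia (log axis) of the 20 most abundant members, 1 point per library, coloured by group and shaped by replicate, with a tick at each group mean of 2 libraries. Trim30a runs from 295 to 433 CPM, and the 5xFAD replicate 2 circle is the lowest point in 13 of 20 rows.

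No member passed the threshold between groups in microglia when male and female nuclei were summed. With edgeR, 0 of 45 members were called in each of the 3 contrasts, where 0.00719%, 0.00719% and 0.0216% of 13908 genes were called (5xFAD-M28L against 5xFAD, 5xFAD-P522R against 5xFAD, 5xFAD-P522R against 5xFAD-M28L). DESeq2 also called 0 in each. The median log2 difference of the members was 0.14 in the first contrast, with 36 of 45 higher and 5 at an unadjusted p under 0.05. It was 0.10 in the second (31 higher, 3 at that p) and -0.11 in the third (16 higher, 4 at that p), while all genes had medians near 0 in each. The contrasts share libraries. Without 5xFAD replicate 2 the medians were 0.04, -0.04 and -0.11, so the second changed sign. Ifi207 was then called lower in the first contrast (0.523% of all genes) and higher in the third (1.18%), and without 5xFAD replicate 3 Ifi207 and Sp100 were called higher in the second (2.73%).

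The members with the smallest p-values were mostly scarce ones. In 5xFAD-M28L against 5xFAD they were Oas2 (log2 difference 1.10 ± 0.27, edgeR adjusted p = 0.731), Trim30a (0.33 ± 0.12), Ifi44 (0.87 ± 0.36) and Oas3 (1.37 ± 0.57) among those higher. Oas2, whose product makes the oligoadenylates that activate RNase L, was at 11.4 and 7.59 CPM in 5xFAD and at 22.6 and 17.2 CPM in 5xFAD-M28L. Among those lower were Iigp1 (-1.26 ± 0.47), Ifi209 (-0.37 ± 0.19), Ifi207 (-0.34 ± 0.24) and Samd9l (-0.23 ± 0.20). In 5xFAD-P522R against 5xFAD they were Samd9l (0.56 ± 0.19, edgeR adjusted p = 0.419), Oas3 (1.55 ± 0.57), Dtx3l (0.29 ± 0.14) and Slfn8 (0.16 ± 0.11), and on the lower side Iigp1 (-1.26 ± 0.49), Ifi209 (-0.29 ± 0.19), Ifi206 (-0.42 ± 0.29) and Ifit3 (-0.46 ± 0.35). Iigp1 was at 7.60 and 12.5 CPM in 5xFAD, 2.82 and 5.62 CPM in 5xFAD-M28L, and 6.64 and 2.48 CPM in 5xFAD-P522R. In 5xFAD-P522R against 5xFAD-M28L, Samd9l (0.79 ± 0.20, edgeR adjusted p = 0.2695), Ifi207 (0.60 ± 0.24), Dtx3l (0.21 ± 0.14) and Cmpk2 (0.67 ± 0.50) led the higher side. Oas2 (-0.88 ± 0.27), Ifi204 (-0.35 ± 0.15), Ifit3 (-0.69 ± 0.34) and Rsad2 (-0.77 ± 0.39) led the lower side. None passed the threshold.

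Of 95 other pathway genes tested in microglia, taken from lists of 116 upstream, signalling and induced genes, none was called in any contrast. The smallest p-values belonged to Cxcl10, a T cell-attracting chemokine, Trim56 and Ptpn11 in 5xFAD-M28L against 5xFAD (log2 differences -2.68 ± 0.78, 0.48 ± 0.14 and 0.29 ± 0.11). They belonged to Ly6a (-2.19 ± 0.55), Cxcl10 (-3.48 ± 0.89) and Ptpn11 (0.39 ± 0.11) in 5xFAD-P522R against 5xFAD. Between the variants they belonged to Tlr7, the endosomal RNA receptor (-0.39 ± 0.09), Ly6e (-0.42 ± 0.12) and Ifi214 (-2.003 ± 0.63). The edgeR adjusted p of these genes ran from 0.212 to 0.778.

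Outside microglia, the same fit called no member either. In OPC, where 0.0% of 14692 genes were called in each contrast, 29 members were tested. The median was 0.13 in 5xFAD-M28L against 5xFAD, -0.19 in 5xFAD-P522R against 5xFAD and -0.37 in 5xFAD-P522R against 5xFAD-M28L, the last with 25 of 29 members lower and 9 at an unadjusted p under 0.05. The OPC members with the smallest p in that contrast were Oasl2 (-1.14 ± 0.24, edgeR adjusted p = 0.871) and Ddx58 (-0.45 ± 0.09) on the lower side, and Ifnar1 (0.24 ± 0.14) and Dtx3l (0.32 ± 0.32) on the higher side. In the other contrasts of OPC they were Ddx58 (0.43 ± 0.09), Oasl2 (0.59 ± 0.22), Ifi35 (-0.68 ± 0.70) and Dtx3l (-0.11 ± 0.32) for 5xFAD-M28L, and Ifnar1 (0.33 ± 0.14), Rsad2 (0.46 ± 0.32), Oasl2 (-0.55 ± 0.24) and Ifih1 (-0.50 ± 0.23) for 5xFAD-P522R. Ddx60 in OPC was at 71.1 and 73.1 CPM in 5xFAD, 102 and 79.75 CPM in 5xFAD-M28L, and 50.9 and 72.5 CPM in 5xFAD-P522R, and both 5xFAD-M28L libraries were the highest.

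In astrocytes (29 members tested, 0.0% of 13233 genes called) the medians were -0.02, 0.08 and 0.14 in the same order of contrasts. Smallest p-values belonged to Rtp4 (0.29 ± 0.14), Dtx3l (0.59 ± 0.42), Iigp1 (-2.29 ± 0.76) and Ifi35 (-1.08 ± 0.60) in the first contrast. In the second they belonged to Ifnar2 (0.40 ± 0.20), Dtx3l (0.93 ± 0.48), Xaf1 (-0.46 ± 0.36) and Iigp1 (-0.92 ± 0.81), and in the third to Bst2 or tetherin (1.87 ± 0.69), Eif2ak2 (0.47 ± 0.20), Rtp4 (-0.32 ± 0.17) and Cmpk2 (-0.52 ± 0.59). Their edgeR adjusted p was at least 0.665.

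In oligodendrocytes (37 members tested) the medians were 0.13, 0.07 and -0.20, and 0.0%, 0.0562% and 0.0% of 16019 genes were called. Ddx60 was the member furthest up, at 0.99 ± 0.18 in 5xFAD-M28L and 0.58 ± 0.18 in 5xFAD-P522R against 5xFAD (edgeR adjusted p = 0.323 and 0.337), followed by Stat2 (0.37 ± 0.12 and 0.28 ± 0.12). Ifitm3 was lower in both, by -1.16 ± 0.32 and -1.67 ± 0.32, with Ifi207 (-1.005 ± 0.51) and Isg15 (-2.29 ± 0.52) next. Between the variants the smallest p-values belonged to Ifnar2 (0.34 ± 0.15), Ifi207 (0.69 ± 0.51), Isg15 (-1.86 ± 0.54) and Ifit3 (-0.83 ± 0.30). Endothelial nuclei were too few in 5xFAD-P522R replicate 3 (11) for the same fit. Under a looser gate, 0 of 32 members were called there in each contrast (0.0% of 6698 genes), with 1 at an unadjusted p under 0.05 (Rsad2, 1.13 ± 0.38 in 5xFAD-M28L against 5xFAD).

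The ratio of female to male levels in microglia differed between 5xFAD and 5xFAD-M28L. Female and male nuclei of a library come from different mice, of unstated number, so sex and animal cannot be told apart. Over the libraries together, 0 of 38 members were called between female and male microglia (0.0654% of 10708 genes; median log2 difference 0.17, 1 member at an unadjusted p under 0.05). Within libraries the sums differed. In female microglia of 5xFAD the summed level of the 45 members was 1561 CPM in replicate 2 and 2753 CPM in replicate 3, against 2940 and 3081 CPM in the males. In 5xFAD-M28L it was 4148 and 3427 CPM in females against 2089 and 2344 CPM in males. In 5xFAD-P522R it was 2626 and 3076 CPM in females against 2801 and 2596 CPM in males. Members were higher in females for 2 and 9 of 45 in the 5xFAD libraries, for 43 and 40 in the 5xFAD-M28L libraries, and for 17 and 36 in the 5xFAD-P522R libraries. Trim30a, the most abundant member, made up 13.2% of the sum over microglia.

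**Figure D3:**
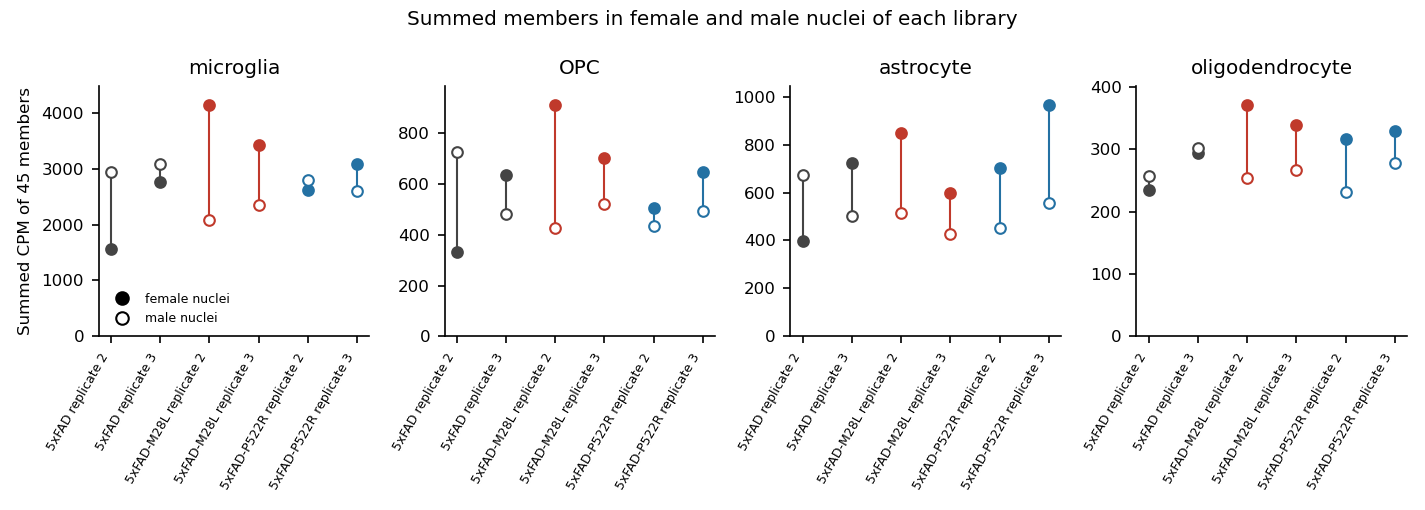
Summed CPM of the 45 members in female (filled) and male (open) nuclei of each library, 1 panel per cell type, each with its own axis from 0, and a line joining the 2 sums of a library. In microglia the female sums of both 5xFAD-M28L libraries (4148 and 3427 CPM) lie above all male sums, and the female sum of 5xFAD replicate 2 (1561 CPM) lies below all others.

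The difference between female and male microglia itself differed between 5xFAD-M28L and 5xFAD. All 38 members that passed the count filter had a positive log2 difference (female over male in 5xFAD-M28L, minus the same in 5xFAD), with a median of 1.60, against 0.00 over all genes. Genes of plaque-associated microglia moved the same way: the 19 genes summed to 812 and 4152 CPM in female and 2801 and 3934 CPM in male microglia of 5xFAD, and to 2679 and 2927 CPM in females and 1739 and 2067 CPM in males of 5xFAD-M28L. Their part in the result was not tested. By edgeR's test of the interaction, 14 of 38 members were called, all on the higher side, where 0.252% of 10708 genes were; 32 of 38 had an unadjusted p under 0.05. There were 27 genes called on that side in all, 14 of them members. Nlrc5, a regulator of MHC class I from the pathway lists, was also called (2.32 ± 0.40). Without 5xFAD replicate 2, 13 members were called (0.408% of all genes) and the median was 1.11, and 12 of the 14 were among them. Without 5xFAD replicate 3, which leaves the library that stood apart as the only 5xFAD one, 27 members were called (5.05% of all genes). Leaving out 5xFAD-M28L replicate 2 or replicate 3, which leaves 1 library in the group, gave 0 calls, with medians of 1.19 and 1.81 and 24 and 31 members at an unadjusted p under 0.05. A looser gate for microglia also gave 0 calls at a median of 1.55, and DESeq2 gave 6, so the direction held under each of these settings while the number of calls did not.

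Among the sensors, Oas2 was at 3.16 and 7.25 CPM in female and 16.2 and 10.0 CPM in male microglia of 5xFAD, and at 48.4 and 27.3 CPM in female and 6.38 and 6.01 CPM in male microglia of 5xFAD-M28L. Its log2 difference was 3.68 ± 0.68 (edgeR adjusted p = 0.02695). Oasl2 was at 12.6 and 53.4 CPM in female and 58.2 and 65.1 CPM in male microglia of 5xFAD, and at 120.7 and 81.0 CPM in female and 23.8 and 31.4 CPM in male microglia of 5xFAD-M28L (2.74 ± 0.48). For both genes every female value of 5xFAD-M28L lay above every male value of that group, and every female value of 5xFAD below every male value of that group. Ddx60 was at 65.55 and 98.8 CPM in females and 151.7 and 143.5 CPM in males of 5xFAD. It was at 193 and 153 CPM in females and 88.1 and 98.2 CPM in males of 5xFAD-M28L, a log2 difference of 1.71 ± 0.27 (edgeR adjusted p = 0.0132). Eif2ak2 had a smaller difference, 1.27 ± 0.23, with females at 76.6 and 138 CPM in 5xFAD and 213 and 184.5 CPM in 5xFAD-M28L.

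Of the p200 genes, Ifi213, Ifi206, Ifi211 and Ifi207 were called. Their promoters are printed above, and a link between the motif and the sex difference was not tested. Ifi213 was at 9.48 and 9.40 CPM in female and 22.2 and 19.5 CPM in male microglia of 5xFAD. In 5xFAD-M28L it was at 53.4 and 32.4 CPM in females and 11.0 and 4.01 CPM in males, a log2 difference of 3.64 ± 0.55 (edgeR adjusted p = 0.0132). Ifi206 (3.23 ± 0.53) was at 23.3 and 12.6 CPM in females and 6.38 and 3.34 CPM in males of 5xFAD-M28L. Ifi211 was at 15.1 and 11.1 CPM in those females and 1.74 and 1.34 CPM in those males (4.41 ± 0.72). Ifi207 had a difference of 2.17 ± 0.44, and in 5xFAD its female values were 11.1 and 61.5 CPM against 53.4 and 76.2 CPM in males. Of the other p200 members, Ifi204 (1.80 ± 0.39, edgeR adjusted p = 0.0554) and Ifi209 (1.96 ± 0.49, adjusted p = 0.0882) did not pass.

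Called members of other roles ranged from scarce to abundant. Trim30a was at 191 and 356 CPM in female and 386 and 379.8 CPM in male microglia of 5xFAD, and at 568 and 508 CPM in female and 277 and 324 CPM in male microglia of 5xFAD-M28L (1.36 ± 0.25, edgeR adjusted p = 0.02695). Rnf213 differed by 1.46 ± 0.23, Slfn5 by 2.13 ± 0.39, Parp14 by 1.14 ± 0.23 and Stat2 by 1.24 ± 0.25. Iigp1 had the highest estimate, 5.48 ± 0.97, and rests on few molecules: it was at 0.790 and 7.52 CPM in females and 13.8 and 27.8 CPM in males of 5xFAD, and at 5.66 and 7.11 CPM in females and 1.16 and 0.0 CPM in males of 5xFAD-M28L. The log2 differences without 5xFAD replicate 2 were 3.55 ± 0.60 for Ifi213, 1.41 ± 0.24 for Ddx60, 0.92 ± 0.19 for Trim30a and 3.04 ± 0.69 for Oas2, all called. Parp14 (0.85 ± 0.21, edgeR adjusted p = 0.0537) and Stat2 (1.035 ± 0.25, edgeR adjusted p = 0.0563) were no longer called. The receptor chains lay at the other end, with 0.18 ± 0.27 for Ifnar1 and 0.23 ± 0.18 for Ifnar2.

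**Figure D4:**
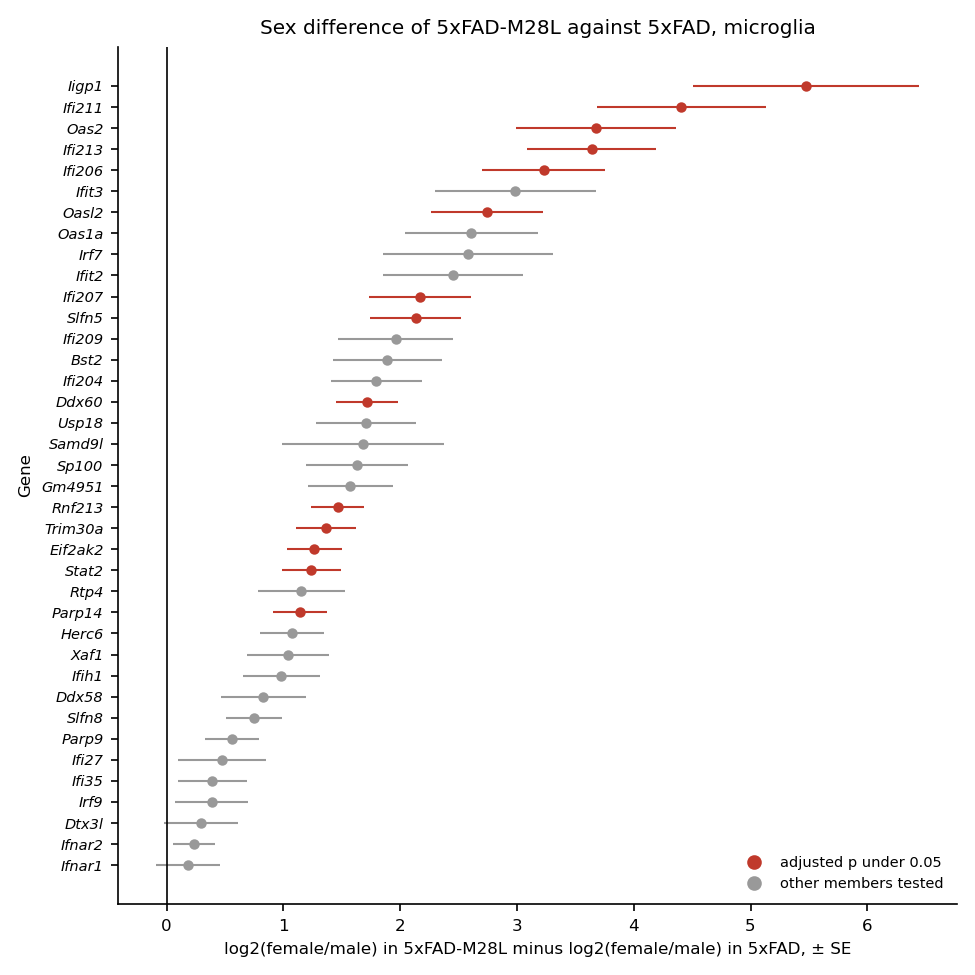
Difference between 5xFAD-M28L and 5xFAD in the log2 ratio of female to male microglia, with its SE, for the 38 members tested, in order of size; red points passed an adjusted p under 0.05. All 38 points lie above 0, from the receptor chains at the bottom to Iigp1 (5.48) at the top.

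The groups were then compared within each sex. In female nuclei alone, all 42 members tested were higher in 5xFAD-M28L than in 5xFAD (median log2 difference 0.86), with 0 called by edgeR (0.0% of 12155 genes) and 23 at an unadjusted p under 0.05. Without 5xFAD replicate 2 the median was 0.48, 43 of 45 were higher and 4 were called (Ddx60, Ifi213, Oas2 and Trim30a; 0.532% of all genes). Leaving out 5xFAD replicate 3 instead, with replicate 2 as the only 5xFAD library, gave 27 calls (6.59% of all genes). In male nuclei alone, 36 of 38 were lower in 5xFAD-M28L (median -0.63), and Iigp1 (-4.89 ± 0.80), Ifi207 (-1.29 ± 0.24) and Oasl2 (-1.17 ± 0.22) were called (0.281% of 11046 genes). Leaving out 5xFAD replicate 2 gave a male median of -0.58 with 5 called (0.837% of all genes), and leaving out 5xFAD replicate 3 gave 1 call (Ifi209; 0.248%). For 5xFAD-P522R against 5xFAD, the medians were 0.39 in female and -0.26 in male nuclei with 0 called in each (0.0% of all genes) and 4 and 8 members at an unadjusted p under 0.05. Leaving out 5xFAD replicate 2 gave a female median of 0.10, and leaving out 5xFAD replicate 3 gave 19 female calls (6.82% of all genes).

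The same test for 5xFAD-P522R gave no call. Against 5xFAD, the sex difference had a median of 0.70 over 38 members, with 34 positive, 0 called by edgeR (0.0% of 10708 genes) and 15 at an unadjusted p under 0.05. Leaving out 5xFAD replicate 2 gave a median of 0.37, and leaving out 5xFAD replicate 3, so that 5xFAD was replicate 2 alone, gave 15 calls (3.23% of all genes). Against 5xFAD-M28L the median was -0.74 with 35 of 38 negative, 0 called (0.0% of all genes) and 18 at that p, and without 5xFAD replicate 2 there were 3 called (Herc6, Ifi213 and Rnf213; 0.065% of all genes) with a median of -0.73.

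OPC also had calls in this interaction, and their number changed with the libraries kept. There, 7 of 25 members were called on the higher side by edgeR (0.894% of 12080 genes): Ddx60 (2.82 ± 0.51), Ifit1 (2.91 ± 0.59), Parp9 (1.56 ± 0.37), Rnf213 (1.57 ± 0.37), Gm4951 (3.53 ± 0.89), Ddx58 (1.28 ± 0.35) and Usp18 (2.48 ± 0.70). Ddx60 and Rnf213 were called in microglia as well. Ddx60 in OPC was at 18.3 CPM in female and 130.7 CPM in male nuclei of 5xFAD replicate 2, at 88.2 and 61.3 CPM in replicate 3, and in 5xFAD-M28L at 172.7 and 122 CPM in females and 45.4 and 43.6 CPM in males. Summed members in OPC were at 333 CPM in female against 725 CPM in male nuclei of 5xFAD replicate 2, and higher in females in the other 5 libraries, from 504 against 435 CPM to 914 against 425 CPM. When that library was left out, 1 member was called (Ddx60, 1.18 ± 0.24; 0.127% of all genes) and the median was 0.32 in place of 1.15. Leaving out 5xFAD-M28L replicate 2 gave 0 calls, and leaving out 5xFAD replicate 3 gave 18 (5.23% of all genes), again against replicate 2 alone. Astrocytes had 0 of 17 and oligodendrocytes 0 of 22 members called (0.0392% and 0.0981% of all genes called on that side), with medians of 0.65 and 0.55 and 8 and 9 members at an unadjusted p under 0.05. Neither fit was repeated without 5xFAD replicate 2. Summed members in astrocytes were at 395.5 CPM in females and 673 CPM in males of that library, and 723 and 504 CPM in 5xFAD replicate 3. In 5xFAD-M28L they were at 849 and 599 CPM in females and 514 and 428 CPM in males. In oligodendrocytes of 5xFAD they were at 234 and 294.5 CPM in females and 257 and 301 CPM in males. In those of 5xFAD-M28L they were at 372 and 339 CPM in females and 253 and 267 CPM in males. In oligodendrocytes the female nuclei of 5xFAD replicate 2 also stood apart, with C4b at 21.8 CPM.

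Members were also counted per nucleus. At least 3 different members were detected in 67.3% to 87.1% of microglia per library. Thinned to 1000 UMIs per nucleus, the share was 27.75% to 38.5%. Thinned to 2000 UMIs, the shares were 53.6% to 69.4% in microglia, 6.80% to 10.5% in OPC, 4.38% to 11.2% in astrocytes and 1.41% to 2.88% in oligodendrocytes, with median depths of 2726 to 3761 UMIs in microglia and 3151 to 4424 in oligodendrocytes. The background from free RNA was not measured. The oligodendrocyte share may hold both free RNA and transcripts of these nuclei themselves, so it is not a background level. Endothelium had 73.9% or more in each library, from 9 to 99 nuclei. Split by sex, the thinned share in 5xFAD-M28L replicate 2 was 74.1% of 405 female microglia (95% Wilson interval 69.6% to 78.1%) and 50.5% of 434 males (45.8% to 55.1%). In 5xFAD replicate 2 it was 40.3% of 367 females (35.4% to 45.4%) and 59.5% of 484 males (55.1% to 63.8%). The median nucleus held 5 different members in the former females and 2 in the latter. In the other libraries the female and male shares were 69.1% and 68.7% (5xFAD replicate 3), 67.2% and 58.8% (5xFAD-M28L replicate 3), 64.9% and 55.6% (5xFAD-P522R replicate 2), and 73.9% and 60.7% (5xFAD-P522R replicate 3).

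Most other members were found more often in microglia nuclei with an Ifit3 UMI than in those without. Ifit3, an RNA-binding partner of Ifit1, was detected in 174 of 8090 microglia, 11 to 39 per library (1.22% to 2.92%), with median depths of 3846 UMIs in these nuclei and 3465 in the others. Of the 44 other members, 41 were found more often in nuclei with Ifit3, 38 of them at least 2 times and 25 at least 3 times as often. Iigp1 was found in 16.1% of nuclei with Ifit3 (95% Wilson interval 11.4% to 22.3%) and 0.670% of those without (0.512% to 0.875%). Slfn5 was found in 47.1% against 7.81%, Oasl2 in 52.3% against 10.8%, and Ifi211 in 21.3% against 1.25%. Each was more often found with Ifit3 in all 6 libraries. The members that did not follow were Ifnar1 (21.3% against 22.1%), Ifnar2 (42.5% against 47.2%) and Ifi27 (10.3% against 13.1%). Nuclei of a library share their source, so these shares describe the nuclei and were not tested. Ifit3 was scarce (7.54 ± 2.22 CPM), so a nucleus without its UMI can still express it. Genes in general were not compared in this way.

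**Figure D5:**
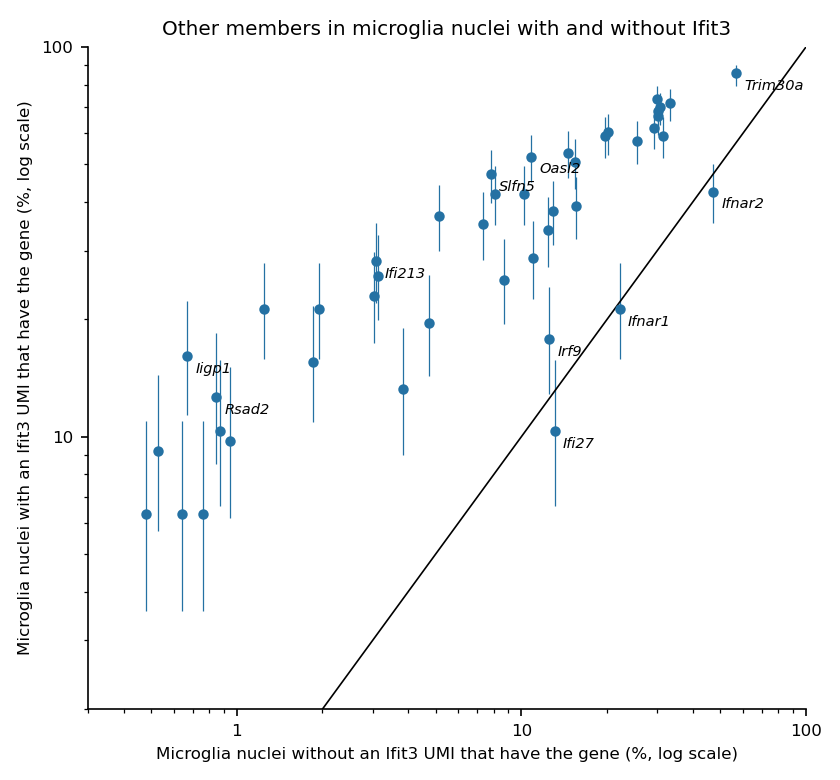
Share of microglia nuclei in which each of 44 other members was detected, without an Ifit3 UMI (x axis) and with one (y axis, bars are 95% Wilson intervals), both on log axes in percent, with the line of equal shares. Points of 41 members lie above the line, Iigp1 (16.1% against 0.670%) far above it, while Ifnar1, Ifnar2 and Ifi27 lie below it.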

How the data were processed

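Gene expression per nucleus was measured in 6 libraries, 2 per group. The authors deposited raw UMI counts per gene and nucleus, made with Cell Ranger against mm10 per the submitters' processing notes (version 6.1.2 in the notes and, per the file headers, in 5 libraries; 5.0.1 in the header of 5xFAD-P522R replicate 3). Whether intron reads and strand were counted is not given in the sources used here.

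Nuclei below 500 UMIs or 300 genes, or above 5% mitochondrial UMIs, were dropped, leaving 62651. A nucleus joined a cell type with at least 3 of its 12 markers, at least 2 times and 2 more than any other of 10 classes. Doublets were left in and removed with Scrublet (threshold 0.311) as an alternative. Female nuclei had an Xist UMI and no Y-linked UMI, male nuclei the reverse. For each cell type (or sex within it) the UMIs of a library were added up and tested with edgeR 4.0.16 (R 4.3.3): TMM, filterByExpr at a minimum count of 10, quasi-likelihood F-test, two-sided, Benjamini-Hochberg adjustment over all genes, threshold 0.05. Scripts were tested on simulated data. Alternatives included DESeq2 1.42.0, other filters and gates, and each library left out; sex fits outside microglia and fits within 1 sex were chosen after seeing the data. Nothing states that libraries come from separate mice, so the spread behind the p-values is that of libraries and may be technical. Intervals and floors cover counting error only.

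Members and lists were chosen with earlier results of these data known. All members were counted by role; those named were the 20 most abundant in microglia, the 3 most abundant in other cell types, members past the threshold, and per contrast those with the smallest p (4 per direction in microglia, 2 elsewhere; 3 pathway genes). Genes named for levels across cell types or co-detection were chosen after their values were seen. 1 pathway gene is not reported here.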

Additional observations from a re-analysis of the deposited data

Results flagged for a closer look

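Results in which the ratio of female to male levels differed between groups, by the interaction test of edgeR, are listed here with their log2 differences. In microglia, 5xFAD-M28L against 5xFAD, 14 of 38 members were called, all on the higher side, where 0.252% of 10708 genes were. Among p200 genes the values were 3.64 for Ifi213, 3.23 for Ifi206, 4.41 for Ifi211 and 2.17 for Ifi207. Among sensors they were 1.71 for Ddx60, 2.74 for Oasl2, 1.27 for Eif2ak2 and 3.68 for Oas2. Among GTPases and Schlafens they were 1.46 for Rnf213, 5.48 for Iigp1 and 2.13 for Slfn5. Trim30a had 1.36, Parp14 1.14 and Stat2 1.24.

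In OPC, 7 of 25 members were called on the higher side for the same contrast (0.894% of 12080 genes): Ddx60 at 2.82, Ifit1 at 2.91, Parp9 at 1.56, Rnf213 at 1.57, Gm4951 at 3.53, Ddx58 at 1.28 and Usp18 at 2.48. Female nuclei of 5xFAD replicate 2, which stand apart in plaque-associated and border macrophage genes, enter both results, and without that library 13 microglial members and 1 OPC member were called. Without either 5xFAD-M28L library, or under the looser gate, 0 microglial members were called by edgeR, with 24, 31 and 32 at an unadjusted p under 0.05. The part of those genes in the results was not tested. Sex and animal cannot be told apart.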

How the results depend on the processing

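No value changed direction under any alternative run for the genes called in the sex comparison: over 178 alternatives the log2 differences in microglia ran from 0.85 to 9.03, with 97 still past the threshold and 81 not, and over 40 in OPC from 0.43 to 4.56 (23 and 17). A called gene that fell below the count filter in a setting has no value there. Of the 14 microglial genes, 7 were tested under the stricter gate and 9 at a minimum count of 50. With at least 2 UMIs of the sex genes, 11 were tested. The OPC alternatives were libraries left out only, with no other gate, filter or tool. The number of calls depended on the setting, and the cause was not tested. Shares of all genes called are not printed in this section, so its counts describe the settings and not the members. For the sex difference of 5xFAD-M28L against 5xFAD in microglia (14 called), there were 6 with DESeq2, 26 with no filter, 2 at a minimum count of 50, 4 under the stricter gate, 0 under the looser gate and 7 with at least 2 UMIs of the sex genes. With no filter there were 7 for 5xFAD-P522R against 5xFAD and 5 for 5xFAD-P522R against 5xFAD-M28L.

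Between groups with both sexes summed, where no member was called, dropping the filter on low counts gave 2 (Iigp1, Oas2), 1 (Iigp1) and 2 (Ifi207, Oas2) in microglia, 2 (Ddx58, Ddx60) for 5xFAD-M28L against 5xFAD and 4 for 5xFAD-P522R against 5xFAD-M28L in OPC, 1 (Iigp1) in astrocytes, and 1 (Ddx60) and 1 (Ifitm3) in oligodendrocytes. Fitting only the 4 libraries compared gave 1 (Ifi207) for 5xFAD-P522R against 5xFAD-M28L in microglia. Under the stricter gate 23 of 26 members were called between microglia and OPC, in place of 39 of 43. The share of microglia with at least 3 different members, a median of 85.2%, was 93.8% for at least 2, 72.9% for at least 4, 33.4% thinned to 1000 UMIs and 62.7% thinned to 2000 UMIs.

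With each library left out in turn, calls in microglia ranged from 0 to 1 for 5xFAD-M28L against 5xFAD, 0 to 2 for 5xFAD-P522R against 5xFAD and 0 to 1 for 5xFAD-P522R against 5xFAD-M28L; a group left with 1 library is assumed to vary like the others. They ranged from 0 to 1 for female against male, and for the sex difference in the 3 contrasts from 0 to 27, 0 to 15 and 0 to 3. In OPC the ranges were 0 to 4, then 0 to 18, 0 to 13 and 0 to 1. Within female microglia they were 0 to 27, 0 to 19 and 0 to 5, and within male microglia 1 to 5, 0 to 1 and 0 to 1.

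Libraries with the same replicate number deviated together from their group means (correlations of 0.15 to 0.55 over genes), but with 2 numbers and no label the numbers are not shown to pair the samples. The replicate block gave 1 call (Ddx58) for 5xFAD-M28L against 5xFAD and 4 (Ddx58, Ddx60, Ifit1, Oasl2) for 5xFAD-P522R against 5xFAD-M28L in OPC, and 1 (Ddx60) and 4 (Bst2, Ddx60, Ifitm3, Isg15) for the contrasts against 5xFAD in oligodendrocytes. It changed no other call between groups.

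Each group has 2 libraries. Endothelial contrasts of groups were run under the looser gate alone, since 5xFAD-P522R replicate 3 had 11 endothelial nuclei. The stricter gate was not run for astrocytes and endothelium. Transcripts of the p200 genes were not compared for shared sequence.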
